A study of Mus musculus with 8 samples.

Results

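The genes described here are 45 genes of the cell cycle and of DNA replication, given as a list by symbol. All 45 were found among the 24369 gene symbols of the count table, and all 45 passed the filter on low counts that left 11394 genes for testing. They were read in 3 classes: 12 S phase genes (Mcm2 to Mcm7, Gins2, Cdc6, Pcna, Tyms, Rrm1 and Rrm2), 26 mitotic genes, and 7 other members (Cdt1, Tk1, Asf1b, Uhrf1, Stmn1, Hmgb2 and Cks1b).

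The libraries came from cells labelled as conventional dendritic cells and sorted out of MC38-EGFP tumours in mice labelled wild type. MC38 is a mouse colon carcinoma line, here carrying enhanced green fluorescent protein (EGFP), so an EGFP-positive dendritic cell is one that holds the tumour cells' protein. The 4 groups were EGFP-positive cDC1, EGFP-negative cDC1, EGFP-positive cDC2 and EGFP-negative cDC2, with 2 libraries each. What all 4 share is the tumour and the sorted dendritic gate, so no tumour-free or unsorted cells were compared. Whether replicates are separate animals is not stated, so a p-value here reflects no more than the spread of the libraries at hand, possibly a technical one.

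A dividing cell copies its DNA in S phase and separates the copies in mitosis. Genes for replication are induced on entry into S phase, largely by E2F transcription factors, whereas genes for chromosome segregation peak later, when the MuvB complex with B-Myb and FOXM1 acts at cell cycle homology regions (CHR) in their promoters. In cells that have left the cycle, the DREAM complex represses both sets. Dendritic cells in tissues arise from precursors that still divide, and dividing cells are known among tissue conventional dendritic cells.

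The promoters of 5 members are shown because these genes carry the main contrast of the data. Cyclin B2 (Ccnb2), the partner of Cdk1 at entry into mitosis, and Spc25, a subunit of the NDC80 complex that ties kinetochores to microtubules, had 0 counts in both EGFP-positive cDC1 libraries. Survivin (Birc5) passed the test between the subsets of EGFP-positive cells. Mcm3 and Mcm6, subunits of the replicative helicase, were detected in all 8 libraries. Each sequence is the stretch from 250 bases before to 50 after the RefSeq start on GRCm38.p6, read 5′ to 3′ on the gene's strand. The stretches lie at chr9:70421505-70421804 (minus strand), chr2:69206164-69206463 (minus strand), chr11:117848987-117849286 (plus strand), chr1:20820263-20820562 (minus strand) and chr1:128359656-128359955 (minus strand). Capitals mark a match, on either strand, to a CHR (TTTGAA or TTCGAA), to a CCAAT box (CCAAT) or to an E2F site (TTCCCGC or TTCGCGC, and also the forms TTGCCGC or TTGGCGC); touching or overlapping matches form 1 run of capitals.
Ccnb2: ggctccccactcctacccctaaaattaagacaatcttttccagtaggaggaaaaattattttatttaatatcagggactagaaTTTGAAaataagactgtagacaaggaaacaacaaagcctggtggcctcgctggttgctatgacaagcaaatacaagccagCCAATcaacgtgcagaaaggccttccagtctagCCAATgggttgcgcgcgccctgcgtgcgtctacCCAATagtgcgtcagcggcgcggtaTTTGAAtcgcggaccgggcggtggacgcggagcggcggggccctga
Spc25: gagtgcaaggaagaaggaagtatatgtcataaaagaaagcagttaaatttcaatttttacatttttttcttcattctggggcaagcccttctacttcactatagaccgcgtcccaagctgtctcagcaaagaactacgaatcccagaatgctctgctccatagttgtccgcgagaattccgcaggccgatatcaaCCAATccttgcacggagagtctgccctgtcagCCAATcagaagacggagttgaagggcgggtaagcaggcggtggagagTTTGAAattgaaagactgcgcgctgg
Birc5: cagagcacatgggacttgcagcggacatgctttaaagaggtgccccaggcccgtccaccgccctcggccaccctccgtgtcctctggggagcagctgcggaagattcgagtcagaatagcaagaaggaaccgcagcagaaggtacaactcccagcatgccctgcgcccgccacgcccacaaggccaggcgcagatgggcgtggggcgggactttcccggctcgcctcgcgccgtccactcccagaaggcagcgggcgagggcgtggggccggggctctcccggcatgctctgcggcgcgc
Mcm3: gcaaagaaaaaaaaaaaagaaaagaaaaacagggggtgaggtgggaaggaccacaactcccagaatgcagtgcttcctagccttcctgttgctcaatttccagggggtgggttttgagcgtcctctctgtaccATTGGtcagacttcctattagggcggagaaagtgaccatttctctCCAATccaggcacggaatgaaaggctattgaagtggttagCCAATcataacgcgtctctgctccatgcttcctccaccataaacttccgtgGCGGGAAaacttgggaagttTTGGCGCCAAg
Mcm6: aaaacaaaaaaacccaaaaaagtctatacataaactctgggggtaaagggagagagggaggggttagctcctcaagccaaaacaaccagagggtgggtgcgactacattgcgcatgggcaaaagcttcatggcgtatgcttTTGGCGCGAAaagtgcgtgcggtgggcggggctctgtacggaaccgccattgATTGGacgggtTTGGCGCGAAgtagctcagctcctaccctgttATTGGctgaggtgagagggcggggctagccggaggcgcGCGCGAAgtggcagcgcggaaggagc

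In these stretches Ccnb2 held 2 CHR and 3 CCAAT matches and 0 E2F matches, and Spc25 held 1 CHR and 2 CCAAT matches and 0 E2F matches. Mcm3 held 3 CCAAT and 3 E2F matches, and Mcm6 held 2 CCAAT and 5 E2F matches, each with 0 CHR matches. Birc5 held none of these letters in this window. RefSeq promoters were matched for 38 of the 45 members. A CHR was found in 17 of 22 mitotic promoters (77.3%) and in 2 of 10 S phase promoters (20%), beside 14.1% of the promoters of genes tested and 19.4% of all 27025 promoters. For E2F sites the order was the opposite, with 4 of 22 mitotic promoters (18.2%) and 7 of 10 S phase promoters (70%), beside 17.8% of genes tested and 9.69% of all promoters. The CCAAT box was present in 17 of 22 (77.3%) and 8 of 10 (80%), beside 38.9% and 37.9%. The E2F form TTGGCGC can overlap the complement of CCAAT by shared bases. These matches describe letters only and are not evidence of binding.

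**Figure D1:**
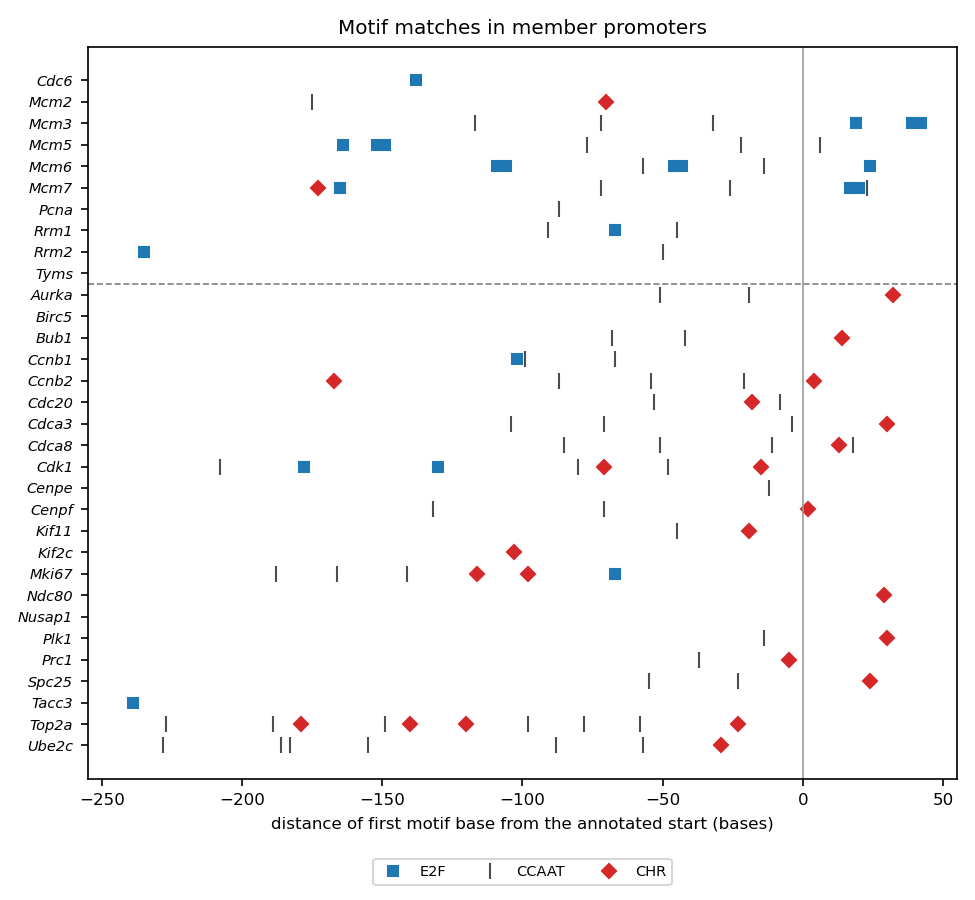
Matches to E2F, CCAAT and CHR letters in the promoters of S phase genes (above the dashed line) and mitotic genes (below it), by distance in bases from the annotated start, which the vertical line marks. CHR matches occur in 17 of 22 mitotic and 2 of 10 S phase promoters, E2F matches in 4 of 22 and 7 of 10.

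Library totals lay between 17869441 and 22195681 counts, and levels are given as CPM, counts scaled to a common library size by TMM, in the order replicate 1 and replicate 2. Levels of different genes are not compared, since CPM is not per length. Genes with any count numbered 8553 and 8208 in EGFP-positive cDC1 and 9602 to 11922 in the other 6 libraries. The replicates' Pearson correlation across genes was 0.629 in EGFP-positive cDC1 and between 0.85 and 0.898 in the other groups, genes not being independent replicates. Of genes clearly counted in either EGFP-positive cDC1 library, 23.3% had 0 counts in the other, beside 2.51% to 7.49% in the other groups. A 0 in these libraries therefore need not mean that the transcript was absent. The 10 cDC1 markers summed to 3290 and 3690 CPM in EGFP-positive cDC1, 7210 and 6060 CPM in EGFP-negative cDC1, and 434 to 1060 CPM in cDC2. Within that list Itgae went the other way, with 290 and 221 CPM in EGFP-positive against 141 and 178 CPM in EGFP-negative cDC1. The 7 cDC2 markers summed to 6.73 to 326 CPM in cDC1 and to 678 to 839 CPM in cDC2. The 5 genes of the conventional dendritic cell lineage summed to 178 to 529 CPM in cDC1 and to 54.9 to 95 CPM in cDC2: Zbtb46 had 10.1 to 37 CPM in the 4 cDC1 libraries and 0 to 1.04 CPM in the 4 cDC2 libraries, Flt3 had 67.2 to 208 CPM in cDC1 and 0 to 10.8 CPM in cDC2, while Itgax had 8.05 to 83 CPM in cDC1 and 51.9 to 82.6 CPM in cDC2. The 15 macrophage and monocyte markers summed to 478 to 13400 CPM in cDC1 and to 28300 to 56900 CPM in cDC2. By these lists the cDC2 libraries were high in macrophage and monocyte markers and low in Zbtb46 and Flt3. The names cDC1 and cDC2 follow the labels. The share of macrophages in the cDC2 gate, and its part in comparisons between the subsets, was not tested. The labels also give the cell type as colon cancer, and the 9 epithelial genes summed to 0.377 to 49.3 CPM, with Krt8 and Krt20 at 0 counts in all 8 libraries and Cdh1 at 49.3 CPM in EGFP-positive cDC1 replicate 2. The T and NK cell genes summed to 0 to 3.32 CPM, with Cd3e at 0 throughout.

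**Figure D2:**
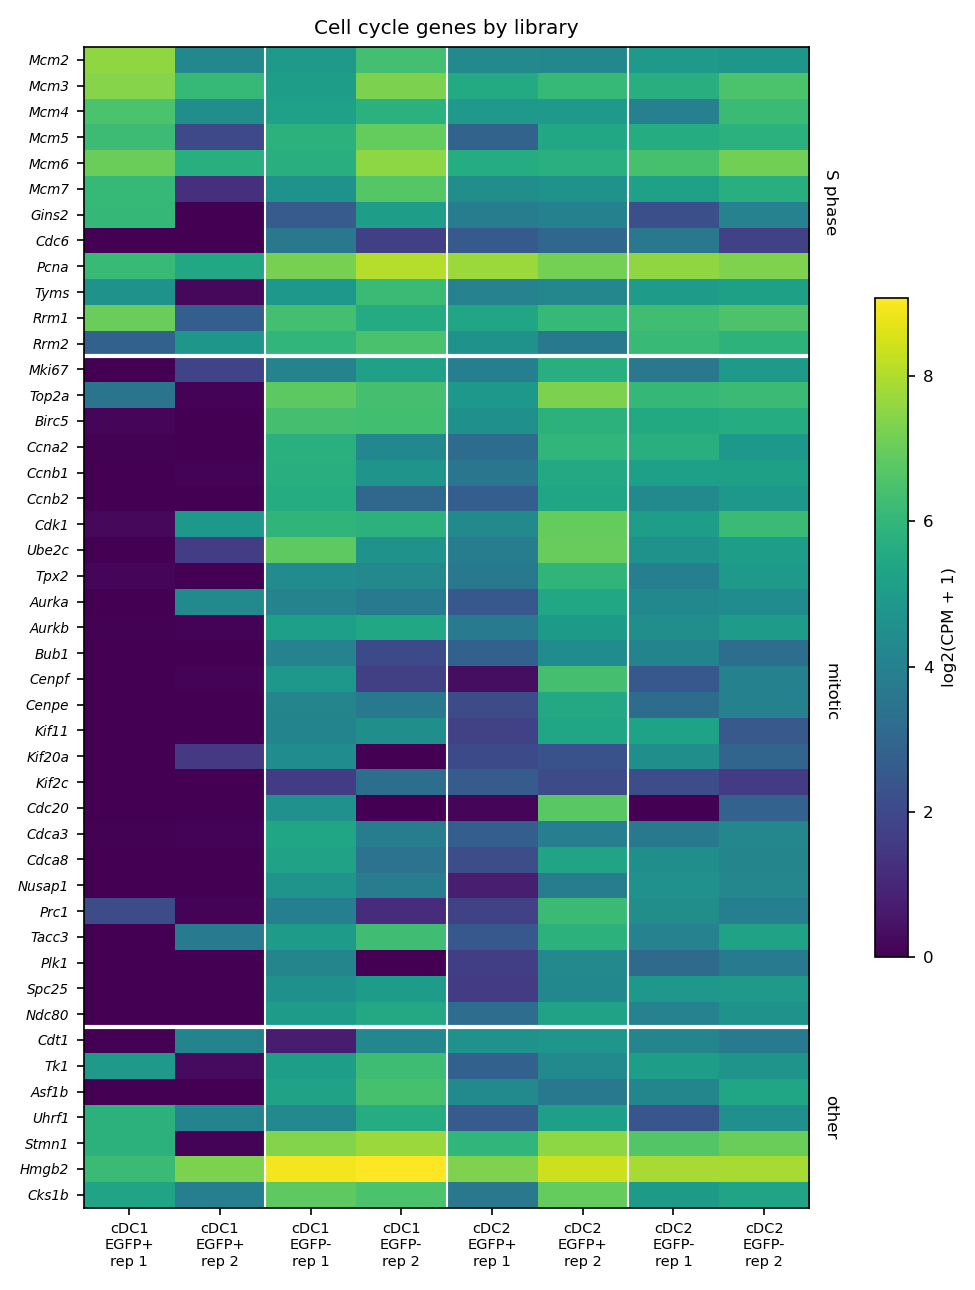
Levels of the 45 members as log2(CPM + 1) in the 8 libraries, with S phase genes at the top, mitotic genes in the middle and other members at the bottom. The mitotic block is dark in both EGFP-positive cDC1 libraries, where 18 of its 26 genes had at most 3 counts in each, while S phase genes are visible there.

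Most mitotic transcripts were at or near 0 in both EGFP-positive cDC1 libraries, and most S phase transcripts were detected there. The 26 mitotic genes summed to 14 and 65.9 CPM in EGFP-positive cDC1, against 943 and 637 CPM in EGFP-negative cDC1; in cDC2 they summed to 200 and 1350 CPM in the EGFP-positive and 571 and 647 CPM in the EGFP-negative libraries. The 12 S phase genes summed to 1020 and 237 CPM in EGFP-positive cDC1, against 565 and 1210 CPM in EGFP-negative cDC1. Their sums in cDC2 were 476 and 498 CPM in the EGFP-positive and 646 and 798 CPM in the EGFP-negative libraries. The mitotic sum was thus 0.0137 and 0.278 of the S phase sum in EGFP-positive cDC1 and 0.42 to 2.71 of it in the other 6 libraries. In bulk RNA, fewer cells in a phase and less RNA of that phase per cell cannot be told apart.

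**Figure D3:**
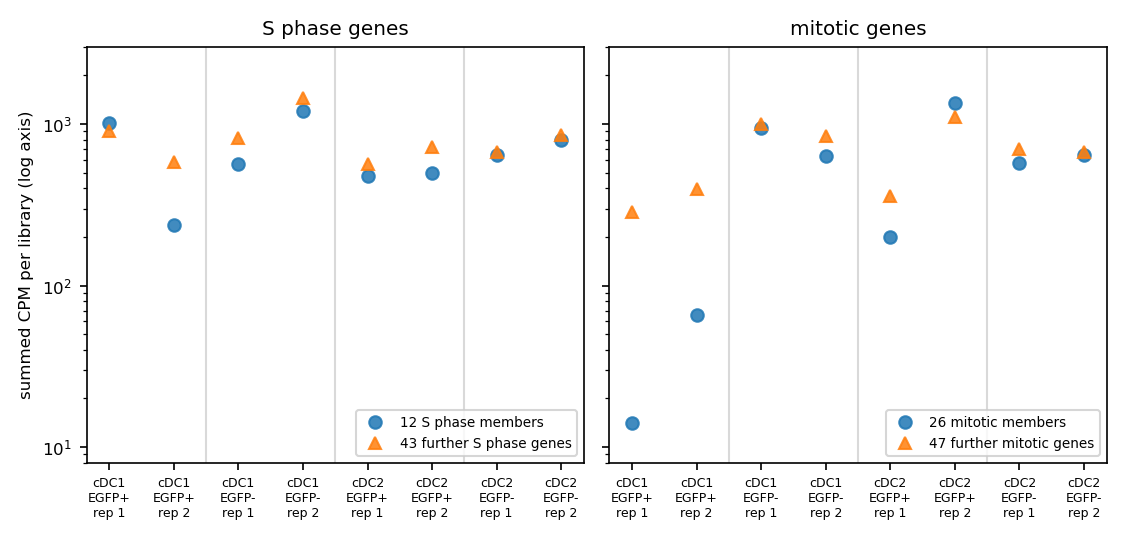
Summed CPM per library (log axis) of the S phase members and 43 further S phase genes (left) and of the mitotic members and 47 further mitotic genes (right). The mitotic members sum to 14 and 65.9 CPM in EGFP-positive cDC1 and to 200 to 1350 CPM in the other 6 libraries. The further mitotic genes sum to 285 and 396 CPM in EGFP-positive cDC1 and to 361 to 1110 CPM in the other 6.

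Counted gene by gene, 18 of the 26 mitotic members (69.2%) had at most 3 counts in each of the EGFP-positive cDC1 libraries, and 11 of them had 0 counts in both. Among all genes tested the same was true of 18.6%. Among S phase members only Cdc6, which loads the helicase onto origins, met it (1 of 12), and among the other members only Asf1b, a histone chaperone of the replication fork (1 of 7). In each of the other 3 groups 0 of the 45 members had at most 3 counts in both libraries, beside 12.2% of all genes tested in EGFP-negative cDC1, 2.84% in EGFP-positive cDC2 and 6.66% in EGFP-negative cDC2. The 8 mitotic members above this level in an EGFP-positive cDC1 library were Mki67, Top2a, Cdk1, Ube2c, Aurka, Kif20a, Prc1 and Tacc3. All but Top2a and Prc1 of these had their higher level in replicate 2.

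**Figure D4:**
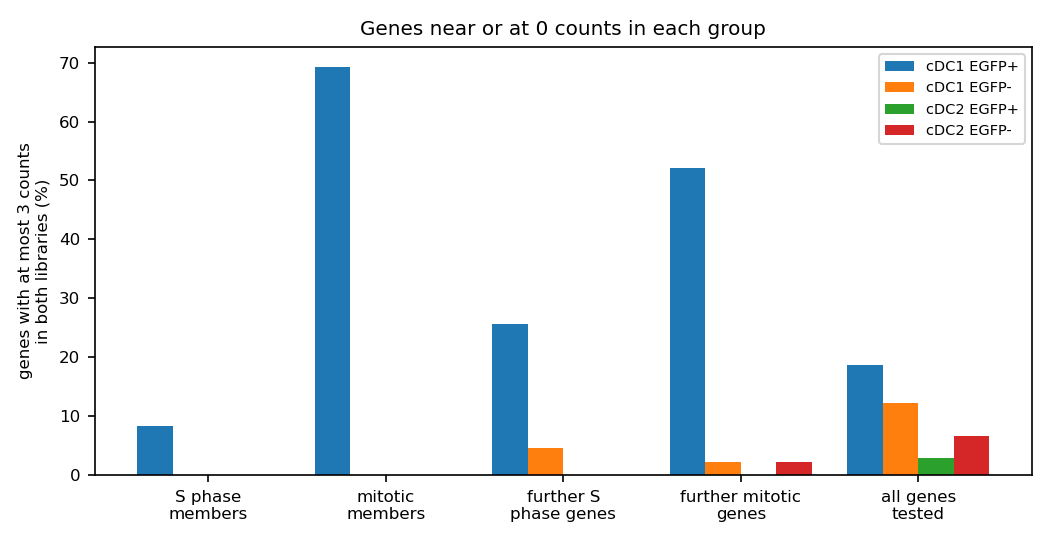
Share of genes with at most 3 counts in both libraries of a group, for 5 gene sets, with 1 bar per group in the order of the legend. In EGFP-positive cDC1 the share is 69.2% of mitotic members, 8.33% of S phase members and 18.6% of all genes tested, and in the other 3 groups it is 0% of both member classes.

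The first question is how EGFP-positive and EGFP-negative cDC1 differ. By edgeR's quasi-likelihood test with Benjamini-Hochberg adjustment over all genes tested, 0 of 45 members passed an adjusted p of 0.05, as did 0% of all genes. At an unadjusted p under 0.05, 19 of 26 mitotic, 3 of 12 S phase and 2 of 7 other members were lower in EGFP-positive cDC1, beside 8.39% of all genes, and 0 members were higher, beside 4.35%. DESeq2 called 23 members, beside 14.3% of all genes with an adjusted p, and voom with limma called 0 members. All 26 mitotic members had a negative log2 fold change, with a median of −9.91, or −7.66 with the 11 genes at 0 set to 3 counts over the group. The S phase median was −0.61, with 5 members above and 7 below 0, and the median over all genes was −0.04.

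Survivin (Birc5) and Aurora B kinase (Aurkb) belong to the chromosomal passenger complex, which corrects chromosome attachment. Birc5 had 0.0875 and 0 CPM in EGFP-positive cDC1, against 82.9 and 79.8 CPM in EGFP-negative cDC1, a ratio of 1510 on 2 counts (95% Poisson interval 418 to 12500; edgeR adjusted p = 0.0581). Aurkb had 0.0437 and 0.0701 CPM in EGFP-positive cDC1, against 33.8 and 42 CPM in EGFP-negative cDC1, a ratio of 703 on 2 counts (195 to 5810; edgeR adjusted p = 0.0777). Both ratios pool the counts of the EGFP-positive cDC1 libraries before scaling, so they differ from ratios of the mean CPM. The log2 ratio of mean CPM was −10.86 for Birc5 and −9.38 for Aurkb. These intervals cover the counting error of the lower group only, since amplified reads carrying no molecular identifiers are no independent molecules. A further subunit, Cdca8, had 0 and 0 CPM against 37 and 9.87 CPM. The EGFP-positive and EGFP-negative libraries did not overlap for any of the 3.

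Subunits of the NDC80 complex were at 0 counts as well. Ndc80 had 0 and 0 CPM in EGFP-positive cDC1, against 31.4 and 43.2 CPM in EGFP-negative cDC1, at least 461-fold lower (edgeR adjusted p = 0.0793). Its partner Spc25, whose promoter is printed above, had 0 and 0 CPM against 22.7 and 31 CPM, at least 332-fold lower (adjusted p = 0.14). Both genes were detected in every library outside EGFP-positive cDC1.

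Cyclins and their kinase differed among themselves. Cyclin A2 (Ccna2), active in S phase and up to mitosis, had 0.0437 and 0 CPM in EGFP-positive cDC1, against 53.9 and 17.9 CPM in EGFP-negative cDC1, a ratio of 1330 on 1 count (239 to 52600). Cyclin B1 (Ccnb1), the main mitotic cyclin, had 0 and 0.0701 CPM against 51.7 and 24.8 CPM, a ratio of 1420 on 1 count (255 to 56100). These ratios again pool counts. By mean CPM the order of these cyclins was the opposite, with log2 ratios of −10.68 for Ccna2 and −10.09 for Ccnb1. For Ccnb2 the levels were 0 and 0 CPM against 47.9 and 7.13 CPM, at least 340-fold lower. Unlike the cyclins, Cdk1 had 0.131 CPM in EGFP-positive replicate 1 and 27.5 CPM in replicate 2, against 59.7 and 55.8 CPM in EGFP-negative cDC1. The mitotic cyclins were thus near 0 in both libraries and their kinase in 1 of them.

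Genes of exit from mitosis were low too. Cdc20, an activator of the anaphase-promoting complex, had 0 and 0 CPM in EGFP-positive cDC1, against 22.9 and 0 CPM in EGFP-negative cDC1, so the groups overlapped. Ube2c, the ubiquitin-conjugating enzyme of that complex, had 0 and 2.1 CPM against 113 and 23.8 CPM. Plk1, a kinase needed at several steps of mitosis, had 0 and 0 CPM against 16.5 and 0 CPM, again with overlap. Over the class, 21 of 26 mitotic members were lower in EGFP-positive cDC1 without overlap between the groups, beside 24% of all genes. None, or 0, were higher without overlap, beside 11.5% of all genes.

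Proliferation markers in common use gave the same order of groups. Mki67, which encodes the Ki-67 protein of mitotic chromosomes, had 0 and 2.52 CPM in EGFP-positive cDC1, against 15.6 and 35.5 CPM in EGFP-negative cDC1. Top2a, the topoisomerase that untangles sister chromatids, had 10.3 and 0.0701 CPM against 110 and 83.5 CPM. Neither gene overlapped between the groups.

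The remaining mitotic members were motors, spindle and kinetochore genes. The kinetochore genes Bub1 and Cenpe and the kinesins Kif11 and Kif2c had 0 counts in both EGFP-positive cDC1 libraries, and Cenpf had 1 count. The spindle gene Nusap1 had 0 counts, Tpx2 2 counts and Cdca3 2 counts over the group. Aurora A (Aurka), a spindle pole kinase, was the mitotic member closest between the groups, at 0 and 19 CPM in EGFP-positive cDC1 against 15.6 and 12.1 CPM in EGFP-negative cDC1. Tacc3, an Aurora A substrate on the spindle, had 0 and 12.6 CPM against 31.6 and 76.9 CPM. Prc1, which bundles microtubules of the central spindle, had 3.24 and 0.0701 CPM against 14.2 and 1.21 CPM. The kinesin Kif20a had 0 and 1.82 CPM against 20.5 and 0 CPM.

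The S phase genes did not share that pattern, and here the EGFP-positive cDC1 libraries disagreed with each other. Mcm2 to Mcm7 encode the 6 subunits of the replicative helicase. Mcm2 had 191 and 17.7 CPM in EGFP-positive cDC1, against 29 and 81.9 CPM in EGFP-negative cDC1. Mcm3 had 173 and 66.3 CPM against 32.2 and 155 CPM. Mcm4 had 89.6 and 21.5 CPM against 35.8 and 54.3 CPM. In all 3 the EGFP-positive replicate 1 lay above both EGFP-negative libraries, while replicate 2 lay below both for Mcm2 and Mcm4 and between them for Mcm3. Mcm5 stood at 73.3 and 3.02 CPM in EGFP-positive cDC1 and at 56 and 120 CPM in EGFP-negative cDC1. Mcm6 stood at 132 and 52 CPM in EGFP-positive and at 50.1 and 186 CPM in EGFP-negative cDC1. Mcm7 stood at 66.6 and 1.4 CPM in EGFP-positive and at 23.5 and 101 CPM in EGFP-negative cDC1. For every one of the 6 the groups overlapped, replicate 1 was the higher EGFP-positive library, and the test gave no call.

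Other replication factors were split. Gins2, part of the GINS complex that completes the active helicase, had 65.3 and 0 CPM in EGFP-positive cDC1, against 5.14 and 33.3 CPM in EGFP-negative cDC1. Cdc6 had 0 and 0 CPM against 11.3 and 2.28 CPM, at least 83.8-fold lower. Pcna, the sliding clamp of DNA polymerases, had 68.9 and 42.2 CPM against 149 and 268 CPM, with a log2 fold change of −1.91 ± 0.44 (SE) that missed the threshold (edgeR adjusted p = 0.185). Pcna and Cdc6 were lower in both EGFP-positive libraries than in either EGFP-negative library, whereas Gins2 overlapped.

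Enzymes that make deoxynucleotides were split as well. Thymidylate synthase (Tyms) had 23.7 and 0.14 CPM in EGFP-positive cDC1, against 27.6 and 72.2 CPM in EGFP-negative cDC1 (−2.06 ± 1.58, edgeR adjusted p = 0.58). The large subunit of ribonucleotide reductase, Rrm1, had 127 and 5.54 CPM against 82.2 and 46.8 CPM. Its S phase subunit Rrm2 had 5.99 and 27.3 CPM against 62.7 and 87.6 CPM (−2.18 ± 0.77, adjusted p = 0.322). Tyms and Rrm2 did not overlap between the groups, and Rrm1 did. In all, 4 of 12 S phase members were lower without overlap, beside 24% of all genes.

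The S phase values depended on single libraries. Without EGFP-positive cDC1 replicate 1 the S phase median became −2.92 and 5 S phase members (Gins2, Mcm7, Pcna, Rrm1 and Tyms) passed the edgeR threshold, among 18 members in all, beside 6.15% of all genes. Without replicate 2 it became 0.14 and only Rrm2 of the S phase genes passed, among 21 members in all, beside 8.41% of all genes. Each of these fits assumes that the lone EGFP-positive library varies like the other groups. Without EGFP-negative cDC1 replicate 2 the S phase median was 0.11. The mitotic median ranged from −11.04 to −8.15 over all alternatives run, with 10 mitotic members past the threshold without EGFP-positive replicate 1 and 18 without replicate 2. The members that passed both ways were Aurkb, Birc5, Ccna2, Ccnb1, Cdca3, Cdca8, Ndc80, Spc25, Tpx2 and Asf1b.

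Among the other members, Stmn1, which destabilises microtubules, had 55.4 and 0.0701 CPM in EGFP-positive cDC1, against 166 and 208 CPM in EGFP-negative cDC1. Hmgb2, a chromatin protein abundant in cycling cells, had 71.7 and 157 CPM against 489 and 540 CPM (−2.17 ± 0.50, edgeR adjusted p = 0.185). Asf1b had 0 and 0 CPM against 36.8 and 84.9 CPM, at least 753-fold lower (adjusted p = 0.0793). These 3 were lower in EGFP-positive cDC1 without overlap, as were Cks1b, a subunit of cyclin-dependent kinases, and the thymidine kinase gene Tk1. That made 5 of 7 other members, beside 24% of all genes. Uhrf1, which maintains DNA methylation behind the fork, had 56.5 and 15.9 CPM against 18.3 and 48.1 CPM. Cdt1, the partner of Cdc6 in licensing, had 0 and 16.1 CPM against 0.607 and 17.7 CPM, and both genes overlapped.

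Markers of other cell states differed in the same libraries. The 7 genes of mature regulatory dendritic cells summed to 480 and 5810 CPM in EGFP-positive cDC1, with 4 and 7 of 7 detected, against 384 and 130 CPM in EGFP-negative cDC1, with 6 and 4 detected. The migration receptor Ccr7 made up 368 and 5490 CPM of the EGFP-positive sums, and Il4i1 was at 0 in replicate 1. Fibroblast and endothelial genes summed to 810 CPM in replicate 1, where 5 of 11 were detected, Sparc at 674, Col3a1 at 90.7, Col1a2 at 40.7, Pdgfrb at 3.67 and Col1a1 at 1.22 CPM, while Dcn, Lum and Pdgfra were among the 6 at 0, and to 22.5 CPM in replicate 2, against 15.6 and 10.7 CPM in EGFP-negative cDC1. The 15 macrophage and monocyte genes, all detected, summed to 478 and 13400 CPM against 2290 and 3480 CPM. Their part in the mitotic and S phase values was not tested.

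In cDC2, all 26 mitotic members were detected in both EGFP-positive libraries. By edgeR 0 of 45 members passed, as did 0% of all genes. At an unadjusted p under 0.05 the count was 1, Rrm2, which was lower, beside 1.54% of all genes, and both DESeq2 and voom with limma called 0 members. The mitotic median log2 fold change was 0.16, with 17 members above and 9 below 0, beside a median of 0.08 over all genes. Its sign rested on single libraries and on the fit, at −1.94 without EGFP-positive cDC2 replicate 2, 0.82 without EGFP-positive cDC2 replicate 1, −0.40 by voom with limma and −0.03 with the replicate number as a block. The EGFP-positive cDC2 libraries lay far apart, with replicate 2 the higher. Fibroblast and endothelial genes summed to 184 CPM in that replicate and to 18.8 to 24.7 CPM in the other cDC2 libraries. Macrophage and monocyte genes summed to 28300 CPM in it and to 46700 to 56900 CPM in the others. The part of these cells in the mitotic values was not tested. Mki67 had 14.3 and 52.5 CPM in EGFP-positive cDC2, against 11 and 28.2 CPM in EGFP-negative cDC2. Top2a had 27.8 and 155 CPM against 65.9 and 71.3 CPM. Birc5 had 22.6 and 55.4 CPM against 44.6 and 48.8 CPM. In each the groups overlapped.

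Replicate 2 was likewise the higher EGFP-positive cDC2 library for the cyclins and for exit from mitosis. Ccna2 had 8.32 and 62 CPM in EGFP-positive cDC2, against 51.2 and 27.8 CPM in EGFP-negative cDC2. Ccnb1 had 10.8 and 43.3 CPM against 33.6 and 34.7 CPM. Cdk1 had 18.8 and 122 CPM against 32.5 and 71.1 CPM. None of these separated the groups. Ube2c had 13.4 and 124 CPM in EGFP-positive cDC2, against 23.6 and 33.1 CPM in EGFP-negative cDC2. Cdc20 had 0.104 and 107 CPM against 0 and 6.23 CPM, a log2 fold change of 4.11 ± 3.77 that became −4.82 without EGFP-positive replicate 2. Spc25 had 1.98 and 18 CPM against 27.8 and 28.2 CPM (−1.49 ± 1.20), and Nusap1 0.676 and 12.9 CPM against 23.2 and 17.3 CPM (−1.58 ± 1.55), each at an edgeR adjusted p of 1. Spc25 and Nusap1 were 2 of 3 mitotic members lower without overlap, beside 19.2% of all genes.

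In EGFP-positive cDC2 the S phase sums, unlike the mitotic sums, were close between replicates. S phase levels in cDC2 were mostly lower in EGFP-positive cells, within the error of the test. Of the 12 members, 10 had a log2 fold change below 0, with a median of −0.65, and 7 were lower without overlap, beside 19.2% of all genes; 0 passed the threshold. Rrm2 had 23.8 and 11.8 CPM in EGFP-positive cDC2, against 68.2 and 57.6 CPM in EGFP-negative cDC2 (−1.82 ± 0.76, edgeR adjusted p = 1). Mcm6 had 48.2 and 53 CPM against 85.7 and 140 CPM (−1.16 ± 0.69). Mcm5 had 6.5 and 42.4 CPM against 47.7 and 54.5 CPM (−1.06 ± 1.32). These 3 had no overlap between the groups.

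The other helicase subunits were mixed. Mcm2 had 18.5 and 18.1 CPM in EGFP-positive cDC2, against 28.4 and 26.9 CPM in EGFP-negative cDC2. Mcm3 had 45.4 and 67.4 CPM against 51.6 and 89.5 CPM. Mcm7 had 21.4 and 24 CPM against 35.7 and 52.4 CPM. Mcm2 and Mcm7 separated the groups and Mcm3 did not. Mcm4 had 28.5 and 28.4 CPM in EGFP-positive cDC2, between the 14.5 and 72.6 CPM of EGFP-negative cDC2. Gins2 had 12.9 and 14.8 CPM against 3.61 and 15.1 CPM. Cdc6 had 4.99 and 7.18 CPM against 11.4 and 2.45 CPM. All 3 overlapped.

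Of the clamp and the nucleotide enzymes in cDC2, Pcna had 211 and 146 CPM in EGFP-positive cells, against 191 and 159 CPM in EGFP-negative cells. Tyms had 15.1 and 17.6 CPM against 30.6 and 35.1 CPM. Rrm1 had 39 and 67 CPM against 77.4 and 93 CPM. Tyms and Rrm1 were lower in both EGFP-positive libraries and Pcna was not. Stmn1 had 62.3 and 183 CPM in EGFP-positive cDC2, against 99.2 and 131 CPM in EGFP-negative cDC2, and Hmgb2 had 158 and 333 CPM against 237 and 235 CPM, both with overlap.

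With both subsets combined in an additive model (4 libraries a side), 0 of 45 members passed for EGFP by edgeR, as did 0% of all genes; 1 member was lower at an unadjusted p under 0.05, beside 2.14% of all genes, DESeq2 called 7 members, beside 2.72% of all genes, and voom with limma 0. The member at an unadjusted p under 0.05 was Rrm2, lower in EGFP-positive cells by a log2 fold change of −2.00 ± 0.52 (unadjusted p = 0.00345, edgeR adjusted p = 0.951). Its EGFP-positive libraries lay between 5.99 and 27.3 CPM and its EGFP-negative libraries between 57.6 and 87.6 CPM, without overlap. In all, 2 of 12 S phase members (Rrm2 and Tyms) and 2 of 26 mitotic members (Spc25 and Nusap1) were lower without overlap, beside 2% of all genes. Pcna gave −0.94 ± 0.46 and Mcm6 −0.76 ± 0.48, neither past the threshold. The medians were −0.84 for S phase and −3.81 for mitotic members, beside −0.05 for all genes. The mitotic median was −1.40 without EGFP-positive cDC1 replicate 1, −1.42 without replicate 2 and −1.22 by voom with limma. It was −7.06 without EGFP-negative cDC2 replicate 1 and −7.07 without replicate 2. The S phase median was −1.41 without EGFP-positive cDC1 replicate 1, −0.54 without replicate 2 and −0.48 without EGFP-negative cDC1 replicate 2.

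**Figure D5:**
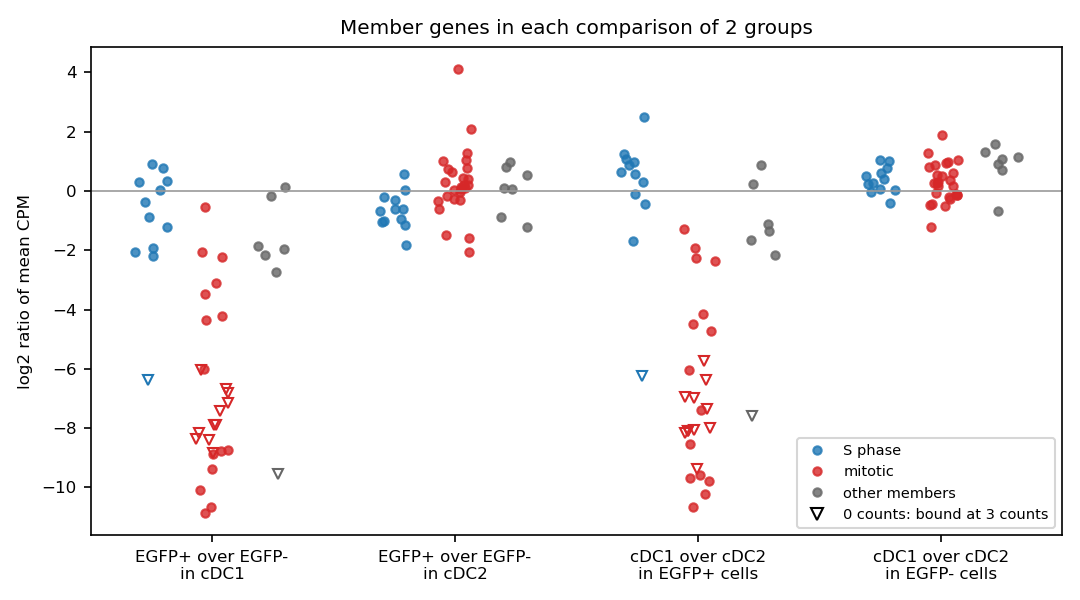
Log2 ratio of mean CPM for each member in the 4 comparisons of 2 groups, S phase in blue, mitotic in red and other members in grey, with open triangles where the first group had 0 counts and was set to 3 counts over the group. Mitotic points lie below 0 in both comparisons that involve EGFP-positive cDC1 and on both sides of 0 in the other two.

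The subsets were compared within each fraction. These comparisons share libraries with those above, so a low level in EGFP-positive cDC1 enters both. Among EGFP-positive cells, 2 of 45 members passed by edgeR, Birc5 and Aurkb, both lower in cDC1, beside 0.114% of all genes called lower and 0.228% called in either direction. Birc5 had 0.0875 and 0 CPM in EGFP-positive cDC1, against 22.6 and 55.4 CPM in EGFP-positive cDC2 (adjusted p = 0.0339), a ratio of 724 on 2 counts (201 to 5980). Aurkb had 0.0437 and 0.0701 CPM against 12.8 and 29.5 CPM (adjusted p = 0.0401), a ratio of 393 on 2 counts (109 to 3250). With counts not pooled, the log2 ratio of mean CPM was −9.8 for Birc5 and −8.54 for Aurkb. Both calls were lost when the 4 EGFP-positive libraries were fitted alone (adjusted p = 0.264) and by voom with limma (adjusted p = 0.371 and 0.381), with the replicate number as a block (adjusted p = 0.108 for each), and 1 or both without any single library other than an EGFP-positive cDC1 library (0 or 1 called). Without EGFP-positive cDC1 replicate 1, 20 members passed, beside 6.83% of all genes, and without replicate 2, 20 passed, beside 10.2%. DESeq2 called 23 members, beside 16.5% of all genes.

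All 26 mitotic members had a negative log2 fold change for cDC1 over cDC2 in EGFP-positive cells, with a median of −9.50, or −7.38 with genes at 0 set to their bound, beside −0.30 for all genes. Of these, 20 had an unadjusted p under 0.05, beside 11.1% of all genes lower by that rule, and 22 were lower without overlap, beside 33.2% of all genes. Ndc80 had 0 and 0 CPM in EGFP-positive cDC1, against 8.38 and 36.2 CPM in EGFP-positive cDC2 (edgeR adjusted p = 0.062). The S phase median was 0.61, with 8 of 12 members above 0 and 2 lower without overlap. Mcm2 gave 2.51 ± 1.02 (adjusted p = 0.295), a value that became −0.04 without EGFP-positive cDC1 replicate 1, and Mcm3 gave 1.08 ± 0.78 (adjusted p = 0.512). Pcna gave −1.69 ± 0.43 (adjusted p = 0.145). The S phase median itself was −2.55 without that replicate and −0.18 by voom with limma.

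Among EGFP-negative cells no difference between the subsets passed the threshold for any member. By edgeR 0 of 45 members passed, beside 0.36% of all genes; 0 had an unadjusted p under 0.05, beside 9.58%, and DESeq2 and voom with limma each called 0. The mitotic median was 0.26, with 16 members above and 10 below 0, and the S phase median 0.33, with 10 of 12 above 0, beside −0.04 for all genes. Without EGFP-negative cDC1 replicate 1 the mitotic median was −0.26 and the S phase median 0.92, and without replicate 2 they were 0.47 and −0.25. Without EGFP-negative cDC2 replicate 2 they were 0.55 and 0.75. Birc5 had 82.9 and 79.8 CPM in EGFP-negative cDC1, against 44.6 and 48.8 CPM in EGFP-negative cDC2 (0.80 ± 0.69, adjusted p = 0.821). Hmgb2 had 489 and 540 CPM against 237 and 235 CPM (1.13 ± 0.48, unadjusted p = 0.0501, adjusted p = 0.521). Ndc80 had 31.4 and 43.2 CPM against 15.1 and 23.8 CPM (0.94 ± 0.95, adjusted p = 0.88). In these 3 the cDC1 libraries were both higher. Over all members 10 of 45 were higher without overlap, beside 21.9% of all genes, and 1 was lower, beside 26.5%. Mcm2 gave 1.0 ± 0.98, Mcm5 0.78 ± 1.31, Pcna 0.25 ± 0.42 and Cdca3 0.86 ± 1.09, with adjusted p from 0.864 to 0.98.

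Over both fractions, 0 of 45 members differed between cDC1 and cDC2 by edgeR, beside 1.32% of all genes; 1 was higher in cDC1 at an unadjusted p under 0.05, beside 5.31%, DESeq2 called 7, beside 12.3% of all genes, and voom with limma 0. The 4-group model in place of the additive one called 7, beside 2.41%. The member at an unadjusted p under 0.05 was Mcm2, at 1.76 ± 0.71 (adjusted p = 0.321), with 17.7 to 191 CPM in cDC1 and 18.1 to 28.4 CPM in cDC2. Prc1 gave −2.83 ± 1.61, Tpx2 −4.29 ± 2.65 and Spc25 −3.81 ± 2.57, with adjusted p from 0.504 to 0.613. All 26 mitotic members had a log2 fold change below 0, with a median of −3.72, and 9 of 12 S phase members one above 0, with a median of 0.49, beside 41.1% of all genes above 0 and a median of −0.28. Without overlap between subsets there were 0 members higher in cDC1, beside 3.96% of all genes, and 0 lower, beside 8.56%. These values include the EGFP-positive cDC1 libraries described above. Without EGFP-positive cDC1 replicate 1 the mitotic median was −1.04 and the S phase median −0.46, and without replicate 2 they were −1.31 and 0.67. The mitotic median was −6.95 without EGFP-negative cDC2 replicate 1, −6.97 without replicate 2 and −0.54 by voom with limma.

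Whether the EGFP difference itself differs between the subsets was tested by the interaction. By edgeR 0 of 45 members passed, as did 0% of all genes; 21 members had an unadjusted p under 0.05, 17 of them mitotic, all lower, beside 7.17% of all genes, while DESeq2 called 20 members, beside 7.74% of all genes, and voom with limma 0. Birc5 gave −10.22 ± 1.24 (adjusted p = 0.141), Aurkb −8.96 ± 1.24 (adjusted p = 0.154) and Ndc80 −12.74 ± 1.89 (adjusted p = 0.184), fitted values that rest on counts at or near 0 in EGFP-positive cDC1. The mitotic median was −9.98 and the S phase median 0.15, beside −0.20 for all genes. The S phase median was −2.59 without EGFP-positive cDC1 replicate 1, −0.57 without EGFP-negative cDC1 replicate 1, −0.23 without EGFP-negative cDC2 replicate 2 and −0.17 by voom with limma, and reached 1.14 at most. Of the S phase members Pcna gave −1.94 ± 0.60 (adjusted p = 0.411), Mcm2 1.51 ± 1.38 and Mcm6 0.80 ± 0.97. Without EGFP-positive cDC1 replicate 1 the values were −1.04 for Mcm2 and −0.02 for Mcm6, and 11 members passed, beside 4.15% of all genes. Without replicate 2, 12 passed, beside 5.35%.

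The other genes of the pathway were read from companion lists. Of 46 further mitotic genes tested, 24 (52.2%) had at most 3 counts in both EGFP-positive cDC1 libraries, and of 43 further S phase genes 11 (25.6%), beside 18.6% of all genes. All 47 further mitotic genes summed to 285 and 396 CPM in EGFP-positive cDC1, against 1000 and 844 CPM in EGFP-negative cDC1. In cDC2 they summed to 361 and 1110 CPM in EGFP-positive and 705 and 667 CPM in EGFP-negative libraries. Unlike the members' mitotic sums, these overlapped between EGFP-positive cDC1 and EGFP-positive cDC2. The 43 further S phase genes summed to 907 and 583 CPM in EGFP-positive cDC1 and to 568 to 1440 CPM in the other libraries. For EGFP in cDC1 the medians were −5.56 (−4.14 with bounds) and −1.04, and 0 genes of either list passed by edgeR. At an unadjusted p under 0.05 by edgeR, 19 and 7 were lower, beside 8.39% of all genes. Ckap2l, a spindle gene, had 0 and 0 CPM in EGFP-positive cDC1, against 33.3 and 22.1 CPM in EGFP-negative cDC1 (adjusted p = 0.116). Mad2l1, of the spindle checkpoint, had 0.0437 and 0 CPM against 25.7 and 14.4 CPM (adjusted p = 0.14). Spc24, of the NDC80 complex, had 0.0437 and 0.21 CPM against 48.3 and 24.5 CPM (adjusted p = 0.13), and Ncaph, of condensin, 0.0875 and 0 CPM against 16.3 and 10.8 CPM (adjusted p = 0.15). These 4, named for their small p in this comparison, stood apart without overlap. Of the 46 further mitotic genes, 28 were lower without overlap, beside 24% of all genes. Unlike most S phase members, the polymerase gene Pole was undetected in both EGFP-positive libraries, with 0 and 0 CPM in EGFP-positive cDC1 against 12.1 and 17.6 CPM in EGFP-negative cDC1 (adjusted p = 0.199). The clamp loader subunit Rfc5 had 8.66 and 13.1 CPM in EGFP-positive cDC1, against 35.3 and 32.5 CPM in EGFP-negative cDC1 (−1.64 ± 0.63, edgeR adjusted p = 0.349). Cyclin E1 (Ccne1), which drives entry into S phase, had 0.0437 and 0 CPM against 1.96 and 27.9 CPM (adjusted p = 0.225).

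Of 18 genes that govern entry into the cycle, 1 passed in any of the 7 comparisons. Cyclin D3 (Ccnd3), a partner of Cdk4 and Cdk6, had 170, 250, 273 and 206 CPM in the 4 cDC1 libraries (EGFP-positive, then EGFP-negative), against 24.7, 11.1, 47.7 and 39.8 CPM in the 4 cDC2 libraries. It was higher in cDC1 by a log2 fold change of 3.0 ± 0.40 over both fractions (edgeR adjusted p = 0.00801), without overlap; 0.816% of all genes were called higher in that comparison. Cyclin D2 (Ccnd2) had 208, 981, 136 and 73.5 CPM in cDC1, against 11.8, 53.5, 19.2 and 53.8 CPM in cDC2 (2.86 ± 0.89, adjusted p = 0.219). Both D cyclins were detected in EGFP-positive cDC1, where mitotic cyclins were near 0. For EGFP in cDC1 the 18 G1 regulators had a median of 0.33 and the 11 tested CDK inhibitors and antiproliferative genes −0.09.

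Among those inhibitors, Gadd45b, a stress-induced gene, had 154 and 277 CPM in EGFP-positive cDC1, against 58.8 and 68.6 CPM in EGFP-negative cDC1 (1.76 ± 0.46, edgeR adjusted p = 0.217). Cdkn1a, which encodes the CDK inhibitor p21, had 267 and 984 CPM against 187 and 346 CPM (1.23 ± 0.60, adjusted p = 0.407). Cdkn1b, which encodes p27, had 0.0437 and 8.63 CPM against 38.4 and 31.3 CPM (−3.01 ± 1.86, adjusted p = 0.478). Gadd45b and Cdkn1b separated the groups in opposite directions, Cdkn1a overlapped, and 0 of the 11 passed.

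Counts of 11 members that overlap another listed gene are uncertain, since use of strand is not given: Ccna2, Cdc20, Cdca8, Gins2, Kif20a, Mcm7, Nusap1, Prc1, Tacc3, Tk1 and Ube2c. Pcna, Tyms, Ccnb1 and Ccnb2 have annotated pseudogene copies that could share reads. Birc5, Aurkb, Ndc80 and Spc25 had no such overlap and no annotated pseudogene under their own name. Pseudogenes under other names were not searched for.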

How the data were processed

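RNA-seq libraries were made from sorted cells with a published low-input cDNA protocol and the KAPA Hyper Prep kit, per the labels' protocols. The authors deposited raw read counts per gene symbol for 8 libraries. Trimmomatic 0.39, STAR 2.7.5c, Cufflinks 2.2.1 and the mm10 build are named, per the submitters' processing notes; the counting tool, the annotation and any strand setting were not given in the sources used here. All 45 members, their classes and the companion and marker lists were chosen with earlier results of these data known. Genes were filtered by expression with edgeR's defaults (11394 of 24369 kept), scaled by TMM and tested with edgeR 4.0.16's robust quasi-likelihood test in R 4.3.3, on all 8 libraries with 1 mean per group, or an additive model of EGFP and subset for the comparisons over both. The threshold was a Benjamini-Hochberg adjusted p of 0.05 over all genes tested, and the code was tested on simulated data. The common dispersion was 1.28. Each SE is the absolute log2 fold change divided by the square root of the test's F statistic. It is therefore a back-calculated value and only approximate, above all for genes at or near 0 counts. Depth was 17869441 to 22195681 counts per library, of which the ribosomal gene Rn45s took 19.4% to 35.6%. A ratio on 1 to 3 counts pools the counts of the lower group before scaling and is not the ratio of mean CPM. A fold against 0 counts uses a floor of 3 counts over the group, and a ratio on 1 to 3 counts has a 95% Poisson interval. Both cover counting error only and set no bound where transcripts were missed before sequencing.

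Named by rule were members past the threshold, otherwise, above a mean level of 5 CPM, the 3 S phase and 3 mitotic members with the smallest p, and a fixed set per library; of each companion list, genes past the threshold or up to 4 of smallest p, of which 1 is not reported here. Alternatives were DESeq2 1.42.0, voom with quality weights in limma 3.58.1, other scaling and filters, a replicate block, fits of only the libraries compared and leaving out each library. Columns with no sample numbered 0.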

Additional observations from a re-analysis of the deposited data

Results flagged for a closer look

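In 6 members the difference between the subsets ran in opposite directions in the 2 fractions, with every cDC1 library below every cDC2 library among EGFP-positive cells and above every one among EGFP-negative cells. Of all genes tested, 6.83% showed an opposite pattern of this kind in either sense. The interaction, which tests that difference, did not pass the edgeR threshold for any of the 6. It was −10.22 on the log2 scale for Birc5 (adjusted p = 0.141), −8.96 for Aurkb (adjusted p = 0.154) and −12.74 for Ndc80 (adjusted p = 0.184). For Top2a it was −4.63 (adjusted p = 0.495), for Stmn1 −2.85 (adjusted p = 0.754) and for Hmgb2 −2.23 (adjusted p = 0.411). Top2a had 10.3 and 0.0701 CPM in EGFP-positive cDC1 against 27.8 and 155 CPM in EGFP-positive cDC2, and 110 and 83.5 CPM in EGFP-negative cDC1 against 65.9 and 71.3 CPM in EGFP-negative cDC2.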

How the results depend on the processing

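Of the counts of members past the threshold, 93 alternative values kept within 1.5 times the main count or equalled it, and 26 moved. For EGFP in cDC1 (main 0) the count was 23 by DESeq2, 9 with no low-count filter and 0 to 21 with 1 library left out. For EGFP over both subsets (main 0) it was 7 by DESeq2. For the subsets in EGFP-positive cells (main 2) it was 23 by DESeq2, 11 with no low-count filter, 1 with no robust estimation, 0 by voom with library quality weights, 0 in a fit of only the 4 libraries compared and 0 to 20 with 1 library left out. For the subsets over both fractions (main 0) it was 7 by DESeq2 and 7 in the 4-group model. For the interaction (main 0) it was 20 by DESeq2, 6 with no low-count filter and 0 to 12 with 1 library left out. RLE scaling, removal of Rn45s and a filter of at least 10 CPM in 2 libraries moved none of these counts. The cause of these moves was not tested.

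With the replicate number as a block, 0 members passed in any comparison, 0 among EGFP-positive cells included (adjusted p = 0.108 for Birc5 and 0.108 for Aurkb). Deviations of same-numbered libraries correlated between −0.224 and 0.041, below the level taken to show pairing. The titles also give all libraries of 1 replicate number a shared code, whose meaning the labels do not state, so a shared source cannot be told apart from a shared number. A crossed pairing of the EGFP-positive libraries, chosen after seeing the data, called 0 members and 8 genes.

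Over all genes, the main fit called 0 for EGFP in cDC1, 26 for the subsets in EGFP-positive cells, 41 in EGFP-negative cells and 150 over both, and DESeq2 called 1565, 1849, 951 and 1407, the fit with no low-count filter 57, 153, 112 and 236, and voom 0, 22, 528 and 872. For the interaction the main fit called 0 genes, DESeq2 887, the fit with no low-count filter 29 and voom 1. With no robust estimation, 12 genes were called for the subsets in EGFP-positive cells. Several class medians turned sign, under voom or the replicate block as well as without 1 library, as given beside them. Signs of the named genes turned in fits without 1 library. Over these fits Cdc20 for EGFP in cDC2 ranged from −4.82 (without EGFP-positive cDC2 replicate 2) to 13.05. Between subsets in EGFP-positive cells Mcm2 ranged from −0.04 (without EGFP-positive cDC1 replicate 1) to 3.39. In EGFP-negative cells Cdca3 ranged from −0.13 (without EGFP-negative cDC1 replicate 1) to 1.43 and Pcna from −0.23 (without EGFP-negative cDC1 replicate 2) to 0.61. In the interaction Mcm2 ranged from −1.04 to 2.45 and Mcm6 from −0.02 to 2.05, both lowest without EGFP-positive cDC1 replicate 1. With 2 libraries a group and a common dispersion of 1.28, the test can miss large differences as well as small ones, and a p that misses the threshold does not show equal levels.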

Other observations

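Of 43 further S phase genes tested, 2 were higher in cDC1 over both fractions without overlap. Another 2 were lower without overlap, beside 8.56% of all genes, and 0 of the 43 passed the threshold. The 2 higher genes were Pold1 and Timeless. Pold1, the catalytic subunit of DNA polymerase delta, had 43.1, 18.9, 34.4 and 44.9 CPM in the cDC1 libraries (EGFP-positive, then EGFP-negative), against 2.91, 5.25, 6.73 and 11.6 CPM in the cDC2 libraries (log2 fold change 2.52 ± 0.62 SE, edgeR adjusted p = 0.103). Timeless, a fork protection factor, had 36.6, 18.4, 52.9 and 26.9 CPM in cDC1, against 3.23, 3.27, 0 and 1.07 CPM in cDC2 (4.61 ± 1.35, adjusted p = 0.175). Neither gene overlapped between the subsets, as was so for 3.96% of all genes tested in that direction. Cdkn1a, which encodes p21, ran the other way, with 267, 984, 187 and 346 CPM in cDC1 against 985, 692, 1100 and 1090 CPM in cDC2 (−1.23 ± 0.50, adjusted p = 0.319), and 1 cDC1 library overlapped the cDC2 libraries.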
